A study of Mus musculus with 7 samples.

Results

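The STAR, CELF and ELAV families are 3 groups of RNA-binding proteins that act on the splicing and stability of transcripts. Their genes are themselves spliced in alternative ways, and 10 of them were examined in depolarized cortical neurons: Khdrbs1, Khdrbs2, Khdrbs3 and Qk of the STAR family, Celf1, Celf2 and Celf4, and Elavl2, Elavl3 and Elavl4. They were taken by gene symbol, and are 10 of the 9060 genes listed with a splicing event. All 10 had at least 1 listed event, and 8 had events in the tables of both replicates, since Khdrbs1 and Khdrbs2 were listed in replicate 2 only. Their listed rows made up 44 of 19447 in the table of replicate 1 and 58 of 22703 in that of replicate 2, or 55 distinct events. Of these, 22 events in 7 genes could be matched between the tables by their coordinates, 9 shared their coordinates with another row and 24 were listed in a single table.

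A STAR protein binds RNA through a KH domain with flanking conserved stretches, and the Khdrbs proteins (Sam68 and its SLM relatives) are known in neurons for regulating alternative exons of synaptic genes. CELF proteins carry 3 RNA recognition motifs and bind GU-rich stretches, and they act both on exon choice in the nucleus and on decay in the cytoplasm. ELAV proteins, also called Hu proteins, bind U-rich and AU-rich stretches, and Elavl2, Elavl3 and Elavl4 are long-standing markers of neurons. Proteins of these families are known to influence the splicing of their own transcripts and those of their relatives, so an event in a regulator gene can alter which protein is made.

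The RNA came from primary cortical neurons of wild-type ICR mouse embryos at embryonic day 16, kept in culture to day 11. Neurons of the KCl group spent 10 min in a buffer with 50 mM KCl, which depolarizes the membrane, and neurons of the control group spent the same time in a buffer with NaCl instead. Both groups were harvested 24 h later, with 2 libraries each, and the comparison asks whether a brief depolarization leaves a change in splicing a day later. The labels do not say that the replicates were separate cultures, so the spread behind a p-value may be technical.

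The values are read counts of the 2 forms of each event: reads of inclusion and reads of skipping. Reads assigned to events came to 3643165 and 4666850 in the KCl libraries (replicate 1, replicate 2) and 3566066 and 5385345 in the control libraries. Markers of the cell types that such a culture can hold differed between the groups. The 7 measured of 12 neuron markers summed to 628 and 2109 CPM (event reads per 1000000, scaled by library) in KCl, against 5622 and 5770 CPM in control, and 6 of the 7 were lower in both KCl libraries than in both control libraries. The summed markers of other cell types were higher in both KCl libraries. The 6 measured of 10 astrocyte markers summed to 3399 and 2561 CPM in KCl and 2528 and 2030 CPM in control. Of these 6, 4 were higher in both KCl libraries, while Aldoc, with the most reads, and Slc1a2 overlapped. The 5 measured of 11 oligodendrocyte lineage markers summed to 1370 and 812 CPM in KCl and 234 and 247 CPM in control. The 4 measured of 8 mesenchymal markers summed to 2070 and 1948 CPM in KCl, against 319 and 503 CPM in control. The 3 measured of 6 progenitor markers summed to 428 and 464 CPM in KCl and 137 and 266 CPM in control, and none of the 6 microglia markers had a matched event. No marker measured was at 0 in a library, and edgeR called 0 of these markers.

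**Figure D1:**
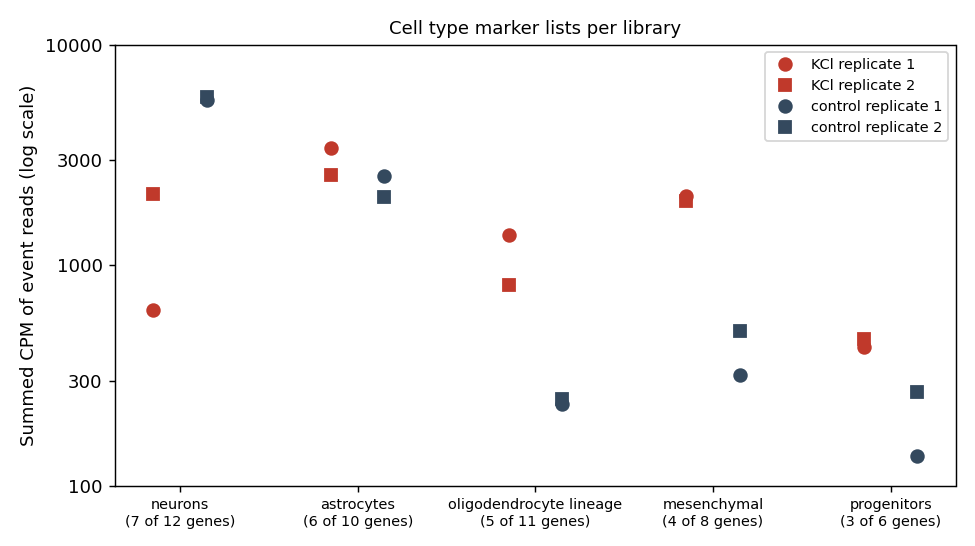
Summed CPM of event reads (log scale) of the measured genes of 5 cell type marker lists, with KCl libraries in red left of control libraries in dark blue, circles for replicate 1 and squares for replicate 2. The neuron list stands at 628 and 2109 CPM in KCl and at 5622 and 5770 CPM in control, and the astrocyte, oligodendrocyte, mesenchymal and progenitor lists are higher in both KCl libraries than in both control libraries.

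The promoters of the only member that was higher in both KCl libraries, Qk, and of the neuronal member Elavl3 are shown because their event reads lay on opposite sides of control. The stretches reach from 250 bases before to 50 bases after the start used by the promoter entry (RefSeq, GRCm38.p6, which is the build mm10). For Elavl3 that start lies inside the annotated gene, whose 5′ end is at 22052146. They are printed 5′ to 3′ on the gene's strand, with GC boxes (GGGCGG or its complement CCGCCC) in capitals.
Qk, minus strand of chr17:10319312-10319611: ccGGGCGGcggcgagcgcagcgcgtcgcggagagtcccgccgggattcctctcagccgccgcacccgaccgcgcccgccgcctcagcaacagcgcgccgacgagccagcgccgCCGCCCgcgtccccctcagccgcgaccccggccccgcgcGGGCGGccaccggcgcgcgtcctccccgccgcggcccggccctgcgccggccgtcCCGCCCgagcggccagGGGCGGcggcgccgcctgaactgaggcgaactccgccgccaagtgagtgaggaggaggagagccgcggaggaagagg
Elavl3, minus strand of chr9:22051974-22052273: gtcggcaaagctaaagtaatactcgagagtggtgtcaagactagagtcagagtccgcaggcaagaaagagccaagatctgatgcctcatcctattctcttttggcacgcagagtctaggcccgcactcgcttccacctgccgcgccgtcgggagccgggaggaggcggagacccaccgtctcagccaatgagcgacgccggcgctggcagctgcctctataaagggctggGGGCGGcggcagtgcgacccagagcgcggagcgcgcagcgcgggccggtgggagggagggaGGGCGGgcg
The Qk stretch held 5 GC boxes, and the Elavl3 stretch held 2 GC boxes and 1 TATAAA. On either strand, GGGCGG was found in 35.7% of 32851 promoter entries and TATAAA in 13.6%. Neither stretch held the cAMP response element TGACGTCA, found in 1.79% of entries, nor its half-site TGACG, which lies within it and was found in 20.8%. Bases made up of G or C came to 81.7% in Qk and 65.3% in Elavl3, against a median of 52.7% over all entries.

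Total event reads per gene, summed over a gene's matched events, describe how much transcript was read at those events and count a read once for each event it falls in. Of the 7 members with a matched event, Khdrbs3, Celf4 and Elavl3 were lower in both KCl libraries than in both control libraries, and Qk was higher in both. None passed: edgeR's quasi-likelihood test called 0 of 7 at an adjusted p under 0.05, and 0% of all 6117 genes. DESeq2 and limma likewise called 0 of the 7. An alternative fit with a replicate block (a term for the replicate number) did call members, as given in the last section. Khdrbs3 had an unadjusted p under 0.05, a mark that 8.27% of all genes passed as lower in KCl. Over all genes, 22.4% were lower in both KCl libraries and 21.9% higher in both, so 4 of 7 members without overlap stands beside 44.3% of all genes. The log2 fold change was below 0 in 6 of the 7 members, with a median of -0.84, against 48.7% of all genes and a median of 0.02. The marker levels set out above moved with these values, and their part in them was not tested. In bulk RNA, fewer cells of a type and less RNA per cell cannot be told apart.

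Among STAR genes, Khdrbs3, which codes for SLM2, a splicing regulator of neurons, had 273 and 385 CPM in KCl, against 710 and 639 CPM in control. Both KCl libraries lay well below both control libraries. The means were 329 ± 79.4 CPM in KCl and 675 ± 50.2 CPM in control (SD, n = 2 each), a log2 fold change of -1.04 (SE 0.37, edgeR unadjusted p 0.0257, adjusted p 0.307). Qk codes for quaking, known for its part in the splicing of glial and myelin transcripts. It had 1205 and 1694 CPM in KCl, against 429 and 1144 CPM in control. The groups did not overlap, but control replicate 2 stood close to KCl replicate 1, and the ratio of KCl to control was 2.81 in replicate 1 and 1.48 in replicate 2. The log2 fold change of Qk was 0.88 (SE 0.52, edgeR adjusted p 0.535), and it was 0.34 without control replicate 1. Khdrbs1, which codes for the broadly expressed Sam68, and Khdrbs2, which codes for SLM1, had no matched event. In replicate 2 Khdrbs1 had 1398 reads in KCl and 1144 reads in control, a ratio of 1.41 after scaling to the reads of the library, and Khdrbs2 had 43 reads in KCl and 57 in control, a ratio of 0.871.

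Among CELF genes, Celf4, known as a neuronal regulator of mRNA stability and translation, had 43.1 and 203 CPM in KCl and 237 and 411 CPM in control. Each KCl library lay below both control libraries, KCl replicate 1 by far the most. The log2 fold change was -1.40 (SE 0.70, edgeR adjusted p 0.444). Without KCl replicate 2 it was -2.91, with an edgeR adjusted p of 0.00679, in a fit that called 4.46% of all genes. That fit has a single KCl library, which is assumed to vary like the control libraries, so it has no replicate check in KCl. Celf1, expressed in most tissues, had 1297 and 1962 CPM in KCl and 1759 and 2288 CPM in control (log2 fold change -0.31, SE 0.39, edgeR adjusted p 0.821). Celf2, which is abundant in brain, had 848 and 2239 CPM in KCl and 995 and 3457 CPM in control (log2 fold change -0.53, SE 0.68, edgeR adjusted p 0.831). In both genes the groups overlapped, with replicate 2 above replicate 1 in either group. Without control replicate 2 the log2 fold change of Celf2 was 0.63, on the other side of 0.

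The ELAV genes code for the neuronal Hu proteins. Elavl3 (HuC) had 41.3 and 59.5 CPM in KCl and 102 and 79.3 CPM in control, with no overlap between groups. Its means were 50.4 ± 12.9 CPM in KCl and 90.6 ± 16.1 CPM in control (SD, n = 2 each), a log2 fold change of -0.84 (SE 0.41, edgeR adjusted p 0.431). Elavl2 (HuB) had a single matched event with few reads, at 0.44 and 9.67 CPM in KCl and 0.95 and 18.1 CPM in control, and Elavl4 (HuD) had none. The log2 fold change of Elavl2 on that event was -0.92 (SE 1.30, edgeR adjusted p 0.854), and it was 2.38 without control replicate 2.

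Summing rows of equal coordinates, a setting chosen after the data were seen, brought in further reads of Elavl2 and Elavl4. In replicate 1 the sums held 170 of 177 listed reads of Elavl2 in KCl and 638 of 668 in control, and all those of Elavl4. In replicate 2 they held 440 of 940 reads of Elavl2 in KCl and 1056 of 2246 in control. For Elavl4 they held 128 of 336 in KCl and 234 of 638 in control there. Elavl2 then had 61.3 and 138 CPM in KCl, against 249 and 312 CPM in control. Elavl4, whose protein stabilizes transcripts in growing neurites, had 13.0 and 40.3 CPM in KCl, against 75.0 and 69.1 CPM in control. In both genes each KCl library lay below each control library, and KCl replicate 1 was the lowest. The log2 fold change was -1.49 in Elavl2 (SE 0.49, edgeR unadjusted p 0.0198, adjusted p 0.323) and -1.43 in Elavl4 (SE 0.58, edgeR unadjusted p 0.0449, adjusted p 0.379), so neither passed. The summed neuron markers were lowest in KCl replicate 1 as well, as given above, and their part in these values was not tested.

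**Figure D2:**
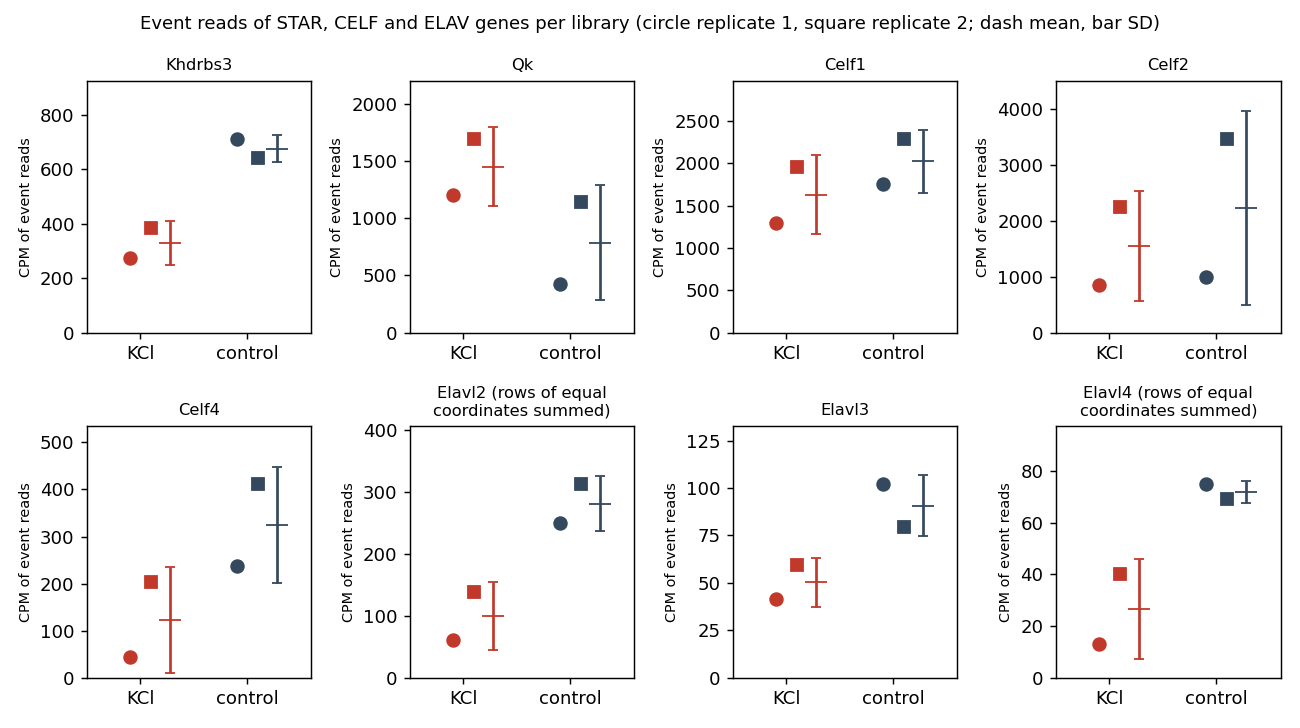
CPM of event reads per library for 8 members, KCl in red left of control in dark blue, circles for replicate 1 and squares for replicate 2, with a dash for the mean and a bar for the SD of 2 libraries. Khdrbs3, Celf4, Elavl2, Elavl3 and Elavl4 lie lower in both KCl libraries than in both control libraries, Qk lies higher, and Celf1 and Celf2 overlap; Elavl2 and Elavl4 are shown with rows of equal coordinates summed.

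All listed rows, matched or not, can be compared within a table, where both libraries hold the same rows. Of the 8 members with rows in both tables, 7 had fewer reads, scaled to the total of the library, in KCl than in control in each table, and Qk had more in each. Of 6701 genes with reads in both tables, 31.3% had fewer in KCl in each and 45.7% had more in each. The ratio of KCl to control was 0.400 and 0.651 in Khdrbs3 (replicate 1, replicate 2), 0.192 and 0.558 in Celf4, 0.259 and 0.483 in Elavl2, 0.428 and 0.811 in Elavl3 and 0.184 and 0.608 in Elavl4. For these 5 genes the ratio was further below 1 in replicate 1 than in replicate 2. It was 3.35 and 1.53 in Qk, 0.766 and 0.906 in Celf1 and 0.814 and 0.677 in Celf2. Each of these ratios sets 1 library against 1 library.

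**Figure D3:**
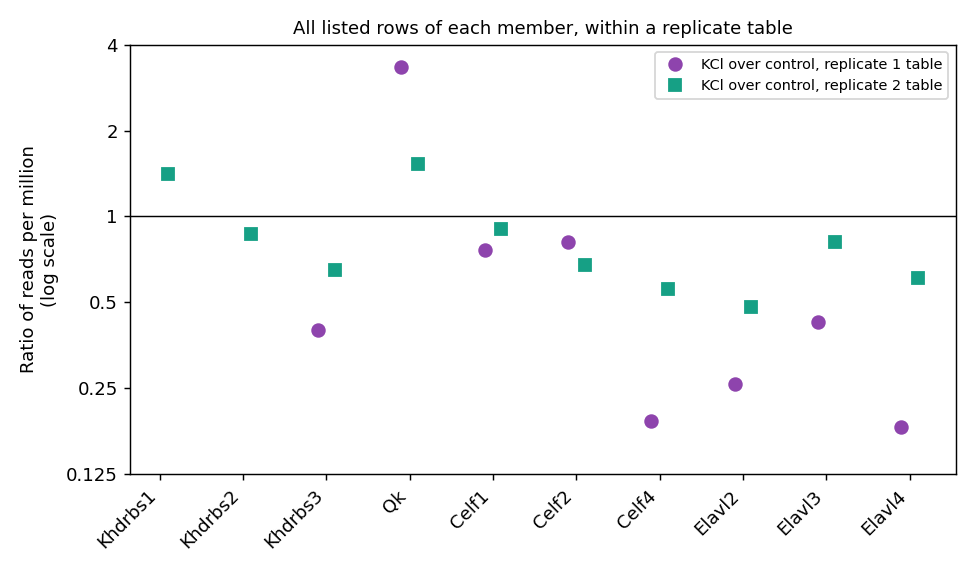
Ratio in KCl to control of reads, scaled to the total of the library, over all listed rows of each member (log scale), circles for the replicate 1 table and squares for the replicate 2 table, with a line at 1. Qk lies above 1 in both tables, at 3.35 and 1.53, and the other 7 members with rows in both tables lie below 1 in both; Khdrbs1 and Khdrbs2 have a replicate 2 value only.

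At single events, reads of both forms together passed edgeR's test in 0 of the 22 matched member events, against 0% of 11814 event levels, and DESeq2 and limma also called 0 of the 22. Here too the fit with a replicate block called members, as given in the last section. The Khdrbs3 exon at 69013358 to 69013474 on chromosome 15 had an unadjusted p under 0.05, which 6.85% of all event levels passed as lower in KCl. It had 175 and 204 CPM in KCl and 475 and 340 CPM in control, a log2 fold change of -1.10 (SE 0.41, edgeR adjusted p 0.421). Of the 22 events, 6 were lower in both KCl libraries and 1 higher in both, where 21.4% and 20.5% of all event levels were. The 6 were both matched exons of Khdrbs3, all 3 matched events of Celf4 and the Elavl3 exon, and the 1 was a Qk exon. Without KCl replicate 2, edgeR called 4 of the 22, the 3 of Celf4 and the sparse one of Elavl2, where 3.67% of all event levels were called.

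Splicing is given as the inclusion read share, the percentage of an event's reads that belong to its inclusion form. Reads were not corrected for the length of each form, so shares of different events are not on 1 scale. edgeR's quasi-likelihood test called 0 of the 22 member events, against 0% of 10088 events tested, and DESeq2 and limma also called 0 of the 22. A single member event, in Celf1, had an unadjusted p under 0.05, where 9.20% of all events did. Adjusted p-values in edgeR ran from 0.265 to 0.99. Shares were higher in both KCl libraries than in both control libraries in 4 events and lower in both in 7, against 21.2% and 19.5% of all events, and 11 overlapped; in 40.7% of all events the groups did not overlap. The median difference in share, without its sign, was 2.14 percentage points over the member events and 3.57 over all events. On the log2 odds ratio, also without its sign, the order was the other way, with medians of 0.857 over the member events and 0.789 over all events. The median log2 odds ratio was -0.24 over the member events and 0.04 over all events. In 11 of the 22 events the control libraries had a mean share of 95% or more, as in 29.6% of all events.

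**Figure D4:**
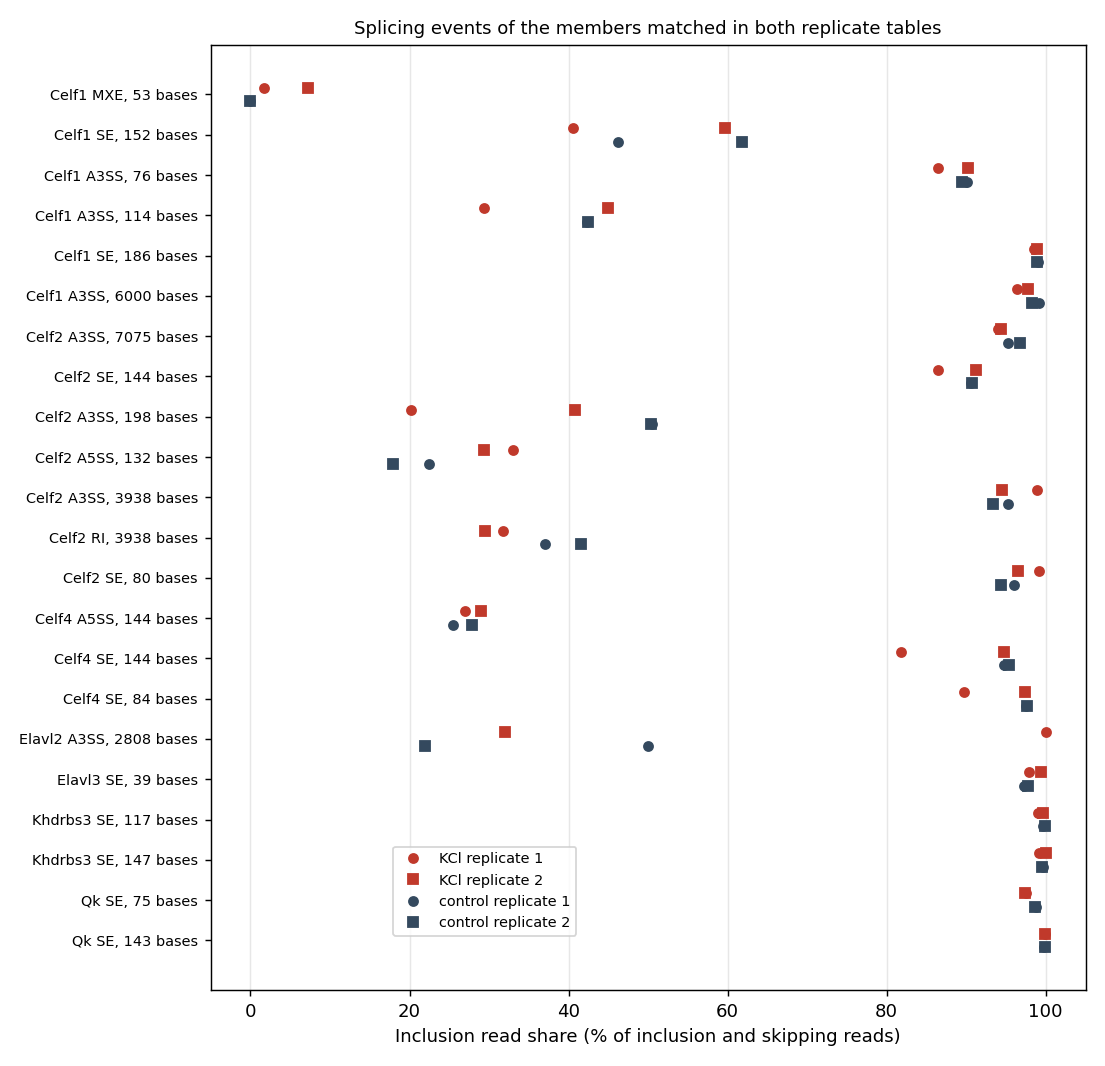
Inclusion read share of the 22 matched member events, named by gene, event type (SE cassette exon, MXE mutually exclusive exons, RI retained intron, A3SS and A5SS alternative 3′ and 5′ splice sites) and length, with KCl in red above control in dark blue, circles for replicate 1 and squares for replicate 2; some points lie under others. Most events sit above 80% in all 4 libraries, the Celf2 A3SS of 198 bases lies at 20.2% and 40.8% in KCl and 50.5% and 50.3% in control, and the Celf1 MXE lies at 0% in both control libraries.

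The smallest p among member events belonged to a pair of mutually exclusive exons of Celf1 on chromosome 2 (mm10), of 53 bases (90954289 to 90954341) and 152 bases (90987665 to 90987816). The inclusion reads are those of the 53-base exon, since the skipping reads of the pair equal the inclusion reads of the 152-base exon in all 4 libraries, at 170 and 129 in KCl and 124 and 134 in control. The 53-base exon had 3 of 173 and 10 of 139 reads in KCl, against 0 of 124 and 0 of 134 reads in control. Both KCl libraries held the exon at a low share, and neither control library showed it. The share was 1.73% (Wilson interval 0.591% to 4.97%) and 7.19% (3.95% to 12.7%) in KCl, and 0 of 258 reads over both control libraries allows a share of up to 1.16%. The interval of KCl replicate 1 includes that limit, and 10 of the 13 inclusion reads came from KCl replicate 2. The event met the minimum of 1 read of each form only through the KCl libraries. With a mean of at least 5 reads of each form it was not tested. Of the 16 member events left, 0 had an unadjusted p under 0.05, beside 576 of all 4723 events tested in that setting. In the main edgeR test the pair did not pass (unadjusted p 0.0050, adjusted p 0.265). Listed as a cassette exon in rows of equal coordinates, the same exon had 5 of 339 and 11 of 160 reads in KCl and 0 of 212 and 0 of 140 reads in control (edgeR adjusted p 0.259, rows summed). These rows share reads with the pair and are not a separate measurement. The intervals and limits given here cover counting error only.

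Other Celf1 events differed little or lay near the end of the gene. An alternative 3′ splice site event had a listed span of 6000 bases (91013491 to 91019490), ending 7 bases from the annotated end of the gene. Its shares were 96.4% and 97.8% in KCl and 99.1% and 98.3% in control. Both KCl libraries were lower, and the skipping reads were 69 and 80 in KCl and 25 and 82 in control. The log2 odds ratio was -1.17 (SE 0.70, edgeR adjusted p 0.670). In the authors' deposited table this event had an FDR of 1.39e-05 in replicate 1 and 1 in replicate 2. An overlapping retained intron event, with a listed span of 91013238 to 91019497, had an FDR of 2.24e-05 in replicate 1. The 152-base exon had 40.6% and 59.7% in KCl and 46.3% and 61.8% in control, with overlap between groups and replicate 2 above replicate 1 in both. An alternative 3′ splice site event with a listed span of 114 bases (91009202 to 91009315) had 29.4% and 44.9% in KCl and 42.3% and 42.4% in control, again with overlap. That exon is also listed as a cassette exon of 114 bases and, from 91009205, of 111 bases. An alternative 3′ splice site event with a listed span of 76 bases (91006620 to 91006695) had 86.4% and 90.2% in KCl and 90.2% and 89.5% in control. A 186-base exon (91010393 to 91010578) was included at 98.5% and 98.9% in KCl and 99.1% and 98.9% in control.

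Celf2, on chromosome 2, had the second smallest p, at an alternative 3′ splice site event with a listed span of 198 bases (6553785 to 6553982). Its inclusion form had 17 of 84 and 119 of 292 reads in KCl, against 53 of 105 and 222 of 441 reads in control. The shares were 20.2% (Wilson interval 13.0% to 30.0%) and 40.8% (35.3% to 46.5%) in KCl, and 50.5% (41.1% to 59.9%) and 50.3% (45.7% to 55.0%) in control. The control libraries agreed closely, and the KCl libraries lay below them and apart from each other. The means were 30.5% ± 14.5 in KCl and 50.4% ± 0.10 in control (SD, n = 2 each), a log2 odds ratio of -1.18 (SE 0.66, edgeR unadjusted p 0.0904, adjusted p 0.627). In the authors' deposited table its FDR was 0.0288 in replicate 1 and 1 in replicate 2.

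Upstream of it in Celf2 lies an alternative 5′ splice site event with a listed span of 132 bases (6560659 to 6560790). It has the same skipping reads, 67 and 173 in KCl and 52 and 219 in control, so both rows rest on a shared form. Its shares were 33.0% and 29.4% in KCl and 22.4% and 18.0% in control. Both KCl libraries were higher, with means of 31.2% ± 2.55 in KCl and 20.2% ± 3.12 in control (SD, n = 2 each), but the event did not pass (log2 odds ratio 0.87, SE 0.64, edgeR adjusted p 0.790). Against the shared form, the inclusion form of the 198-base span was thus lower in share in both KCl libraries. That of the 132-base span was higher in share in both. The number of bases that differ between forms is not listed for either event, so the effect on the reading frame is not known.

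Elsewhere in Celf2, a cassette exon of 80 bases (6607882 to 6607961) had 99.1% and 96.5% in KCl and 96.1% and 94.4% in control (log2 odds ratio 1.15, edgeR adjusted p 0.760). It rests on few skipping reads, 2 and 13 in KCl and 7 and 36 in control. An alternative 3′ splice site event with a listed span of 3938 bases (6604024 to 6607961) has the same ones. Its shares were 98.9% and 94.6% in KCl and 95.3% and 93.4% in control (edgeR adjusted p 0.865). A retained intron event has the same span, which takes in an exon at either end (6604024 to 6604182 and 6607882 to 6607961). Its shares were 31.7% and 29.5% in KCl, against 37.1% and 41.6% in control. Both KCl libraries were lower, with means of 30.6% ± 1.59 in KCl and 39.3% ± 3.19 in control (SD, n = 2 each; log2 odds ratio -0.57, edgeR adjusted p 0.903). The best-covered event, a terminal alternative 3′ splice site (6539705 to 6546779) ending 11 bases from the annotated end of the gene, had 94.0% and 94.4% in KCl and 95.2% and 96.8% in control. A 144-base exon (6549832 to 6549975) overlapped between groups, at 86.4% and 91.2% in KCl and 90.6% and 90.8% in control.

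In Celf4, on chromosome 18, an 84-base exon (25491141 to 25491224) was included in 35 of 39 and 189 of 194 reads in KCl, against 192 of 197 and 423 of 433 reads in control. KCl replicate 1 stood apart at 89.7% (Wilson interval 76.4% to 95.9%), while KCl replicate 2 at 97.4% was close to control at 97.5% and 97.7% (edgeR adjusted p 0.880). The 144-base form of this exon, from 25491081 to 25491224, rests on the same skipping reads and had 81.8% and 94.7% in KCl and 94.7% and 95.4% in control (edgeR adjusted p 0.893). With 4 and 5 skipping reads in KCl and 5 and 10 in control, a small difference could not be detected here. The best-covered Celf4 event, the choice of alternative 5′ splice site at the same exon, had 27.0% and 28.9% in KCl and 25.5% and 27.8% in control, which overlapped.

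The STAR genes included their matched exons in nearly all reads. The best-covered exon of Qk, 143 bases on chromosome 17 (10282839 to 10282981), had 2580 and 4035 reads in KCl and 826 and 2938 reads in control, and its share was 99.8% and 99.9% in KCl and 99.8% and 99.9% in control (edgeR adjusted p 0.970). A 75-base exon of Qk (10213359 to 10213433), in the 3′ part of the gene where the quaking isoforms differ, had 97.5% and 97.4% in KCl and 98.7% and 98.7% in control. Both KCl libraries were lower, by about 1 percentage point, which did not pass (log2 odds ratio -0.89, edgeR adjusted p 0.896). The difference rests on few skipping reads, 4 and 9 in KCl and 1 and 3 in control. A pair of mutually exclusive Qk exons, 10273947 to 10274063 and the 143-base exon, was listed for replicate 1 only, with 41.4% of 3214 reads in KCl (Wilson interval 39.7% to 43.1%) and 47.2% of 879 reads in control (43.9% to 50.5%). Both exons of that pair are each included in over 99% of reads as cassette exons, and the value has no replicate. The Khdrbs3 exon of 117 bases (69013358 to 69013474) had 99.0% and 99.6% in KCl and 99.6% and 99.9% in control (log2 odds ratio -1.39, edgeR adjusted p 0.812). Its exon of 147 bases (69017328 to 69017474) had 99.1% and 100% in KCl and 99.6% and 99.5% in control.

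The ELAV genes carry a 39-base cassette exon in Elavl2, Elavl3 and Elavl4 alike. In the neuronal Hu proteins an alternative exon of the linker between the second and the last RNA recognition motif is known to affect where the protein sits in the cell. In Elavl3 (chromosome 9, 22024674 to 22024712) it was included at 97.9% and 99.4% in KCl, against 97.2% and 97.7% in control. Both KCl libraries were higher, on 2 and 1 skipping reads in KCl and 6 and 5 in control (log2 odds ratio 0.98, SE 1.00, edgeR adjusted p 0.893). In Elavl2 (chromosome 4, 91254141 to 91254179), with rows of equal coordinates summed, it was included in 19 of 27 and 49 of 63 reads in KCl, against 90 of 100 and 132 of 149 reads in control. The mean of these sums was 74.1% ± 5.24 in KCl, against 89.3% ± 1.00 in control (SD, n = 2 each; log2 odds ratio -1.49, SE 0.81, edgeR unadjusted p 0.0821, adjusted p 0.618). Both rows of replicate 1 were lower in KCl, while those of replicate 2 went opposite ways, with 29 of 40 reads in KCl and 80 of 84 in control in the lower row and 20 of 23 reads in KCl and 52 of 65 in control in the higher row. In Elavl4 (chromosome 4, 110209740 to 110209778), summed in the same way, the shares of 85.7% and 91.2% in KCl and 93.0% and 91.2% in control came from 21 and 57 reads in KCl and 114 and 113 reads in control (edgeR adjusted p 0.980). The Elavl4 groups were close apart from KCl replicate 1, which had the fewest reads.

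A 91-base exon of Elavl2 (91311573 to 91311663), with rows summed, was included in 49.0% and 49.7% of reads in KCl, against 69.7% and 65.9% in control. The means of these sums were 49.4% ± 0.53 in KCl and 67.8% ± 2.72 in control (SD, n = 2 each), but the rows summed did not all go the same way. Both rows of replicate 1 were lower in KCl. In replicate 2 a single row was lower in KCl, with 40 of 124 reads in KCl and 129 of 229 in control. The others were higher in KCl, with 29 of 40 and 25 of 25 reads in KCl and 91 of 141 and 83 of 90 reads in control. The exon did not pass either (log2 odds ratio -1.10, SE 0.65, edgeR unadjusted p 0.106, adjusted p 0.670). The lowest FDR of its rows in the authors' deposited table was 0.0617, in replicate 2. The terminal alternative 3′ splice site of Elavl4 (110203737 to 110206701) had 60.0% and 74.6% in KCl and 65.4% and 69.4% in control. The matched event of Elavl2, an alternative 3′ splice site (91250763 to 91253570), had only 1 and 25 reads in KCl and 2 and 50 reads in control, too few to place its share. With rows of equal coordinates summed, 30 member events were tested and edgeR called 0, as it did of all 11655 events. An unadjusted p under 0.05 was found in 2 of the 30, beside 1054 of all 11655 events. Both are listings of the 53-base Celf1 exon that share reads.

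Of the 24 rows found in a single table, 21 were listed as cassette exons, and 19 of these were included at 95% or more in both libraries of the table, with differences of at most 4.65 percentage points. Both exons of Khdrbs1, the exon of Khdrbs2 and the Celf2 span of 3938 bases, also listed as a retained intron, were among them. The other 2 were an Elavl4 exon (110255419 to 110255505) with 1 of 53 reads in KCl and 0 of 86 in control, and a Celf2 exon (6664115 to 6664197) with 5 of 5 reads in KCl and 0 of 2 in control. Neither has the depth for a comparison. The authors' FDR was under 0.05 in 3 of the 44 member rows of replicate 1, where it was in 2.26% of all rows, and in 0 of the 58 member rows of replicate 2, against 0.828%. The 3 rows are the terminal Celf1 pair and the Celf2 site described above, and each such test sets 1 library against 1 library.

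Across the 10 genes the 37 distinct events listed as cassette exons ranged from 39 to 3938 bases, and 20 were a multiple of 3 bases long. The longest is the Celf2 span that is also listed as a retained intron and takes in an exon at either end. Relatives shared exon lengths in each family. The 39-base exon recurred in 3 ELAV genes and a 104-base exon in Elavl2 and Elavl4. Exons of 83 and 144 bases recurred in Celf2 and Celf4, an exon of 117 bases in Khdrbs1, Khdrbs3 and Qk, and an exon of 147 bases in Khdrbs2 and Khdrbs3. Shared length does not by itself make exons counterparts.

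Of 5 further members of these families, 3 were measured. Celf5 had 19.3 and 29.4 CPM in KCl and 72.1 and 73.5 CPM in control, and Celf3 had 91.4 and 281 CPM in KCl and 417 and 535 CPM in control. Both are CELF genes of the nervous system and both lay lower in each KCl library (log2 fold change -1.58 in Celf5 and -1.35 in Celf3, edgeR adjusted p 0.285 and 0.358). Sf1, a general splicing factor of the STAR type, had 233 and 489 CPM in KCl and 232 and 472 CPM in control. None of the 3 was called, and edgeR called 0 of their 10 events, 0 of which had an unadjusted p under 0.05.

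Genes with an exon known to be regulated by such proteins were listed as possible targets, and 9 of 10 were measured, with 39 events. edgeR called 0 of the 39. Unadjusted p-values under 0.05 came to 11, of which 4 had a higher and 7 a lower share in KCl, beside 4.23% and 4.97% of all events. The 11 are not all separate measurements. Rows of Mapt that end at 104305409 have the same skipping reads, as do cassette rows of Nrxn2 that start at 6463824. A 54-base exon of App, the amyloid precursor gene (chromosome 16, 84971408 to 84971461), had 89.1% and 93.9% in KCl and 98.9% and 99.0% in control (log2 odds ratio -3.07, SE 0.73, edgeR adjusted p 0.124). A 198-base exon of Mapt, which codes for the microtubule protein tau (chromosome 11, 104305212 to 104305409), had 31.1% and 35.2% in KCl and 8.45% and 12.0% in control (log2 odds ratio 2.13, edgeR adjusted p 0.233). In both genes the groups were well apart. A 24-base exon of Nrxn2, which codes for an adhesion molecule of the synapse (chromosome 19, 6463824 to 6463847) had 6.93% and 10.6% in KCl, against 32.7% and 23.3% in control (log2 odds ratio -1.97, edgeR adjusted p 0.328). Event reads of the 9 genes had log2 fold changes below 0 in 9 of 9, with a median of -1.14 and 7 lower in both KCl libraries. Over all genes, 48.7% were below 0, the median was 0.02 and 22.4% were lower in both KCl libraries. The neuron markers were lower in the same libraries, and their part in these shares and reads was not tested.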

How the data were processed

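RNA of 2 KCl and 2 control libraries was analysed; groups come from the sample titles. The authors deposited whole-number counts of inclusion and skipping reads for splicing events, with p-values and FDRs (adjusted p-values) that set a KCl library against the control of its replicate number, per the file headers. The submitters' processing notes name CASAVA 1.7, BWA 0.7.12, MACS2, TopHat2 and mm10; which tool counted events, and whether it used strand, is not given in the sources used here, so overlapping genes cannot be told apart. H3K9me3 data of the series were not used here.

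Starts were converted to count from 1. Both files of a replicate number list the same rows. The 11814 events with coordinates unique in both tables were matched. For splicing, edgeR's quasi-likelihood test (edgeR 4.0.16 under R 4.3.3) was run on inclusion and skipping counts together; its terms were the library, the form and the interaction of form with KCl, over 10088 events in which each form averaged at least 1 read. The same test, with TMM scaling and an average of at least 1 read, was run on event reads per gene (6117 genes) and per event; CPM use the TMM-adjusted totals. Benjamini-Hochberg adjustment ran over all items tested, with a threshold of 0.05. The SE is the absolute log2 value over the square root of F. Intervals are 95% Wilson intervals, and the limit of a count of 0 is 3 counts. An exact permutation of 2 against 2 libraries cannot go below a p of 0.333. Libraries of a group differed by more than sampling noise (chi-square per degree of freedom 29.6 in KCl and 28.5 in control). The fits were tested on simulated data in which libraries of 1 replicate number shared no effect, unlike the gene levels here.

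Members, gene lists, marker lists and the naming rule were chosen with earlier results of these data known. Values are given for each member's best-covered event, the 10 member events with the smallest p and up to 4 events of the listed target genes; other events named were chosen after their values were seen, and 1 item that the rule names is not reported here. Alternatives were a replicate block, DESeq2 1.42.0, limma 3.58.1, other scalings and filters, the best-covered event, all listed rows and leaving out each library; summing rows of equal coordinates was added after the data were seen. Promoters are from RefSeq; for Khdrbs1, Khdrbs3 and Celf4 none was used.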

Additional observations from a re-analysis of the deposited data

How the results depend on the processing

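Over all genes and events edgeR called 0 in the splicing, gene and event read tests; the other counts were these. A fit with the replicate block in edgeR called 167 events for splicing, 1408 genes (23% of those tested) and 1359 event levels (11.5%). Between libraries of 1 number, deviations from the group means had a correlation of 0.622 for log2 CPM of genes and of 0.0573 for log2 odds of inclusion. The authors' own tests set libraries of 1 number against each other, but the labels do not say what such libraries share. With only 2 pairs, the main tests did not treat the libraries as paired, and the gene and event read calls depend on that choice. With the block, Khdrbs3 (-1.05, edgeR adjusted p 0.00337), Qk (1.03, adjusted p 0.00753), Celf4 (-1.70, adjusted p 0.000158) and Elavl3 (-0.85, adjusted p 0.0305) were called for event reads. At single events the block called 4 of the 22 member event levels, in Celf4 and Khdrbs3, and no member event for splicing. DESeq2 called 177 genes and 74 event levels, none of them a member. Leaving out each library gave 0 to 273 called genes and 0 to 434 called event levels, both highest without KCl replicate 2. Leaving out each library put the log2 fold change at -1.39 to 0.63 in Celf2 and at -4.32 to 2.38 in Elavl2, and the log2 odds ratio of the Elavl2 event at -0.72 to 4.86; each turned round without control replicate 2, and the cause was not tested. The share difference of that event, which has 1 read in KCl replicate 1, was -4 percentage points without that library. The directions of the other member genes and of the other member events tested this way held under the alternatives run. The share difference of the Celf1 exclusive exons was 1.73 to 7.19 percentage points with 1 KCl library left out. Depth limits events with 10 or fewer skipping reads in each library, as in Celf4, Elavl3, Khdrbs3 and Qk, and the tables give gene levels only through listed events.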
